A study of Mus musculus with 4 samples.

Results

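The genes described here are 35 members of the unfolded protein and amino acid stress programmes, of 27998 mouse genes listed in each library. They were listed by symbol, with earlier results of these data known, and all 35 symbols were found. They were described as an endoplasmic reticulum (ER) chaperone arm of 18 genes and an ATF4 target arm of 17 genes. The data were single-cell libraries, 1 each of the treatment groups named Ac, C, aC+C and IgG; the sources used here do not spell these names out, and the genotype field holds only an age of 6-8 weeks. The sample titles name tumor-infiltrating immune cells and the series title names CD8+ T cells, whereas the cell type field names goblet cells and the protocol describes sorting them from RedMUC298trTg mice; whether that transgene applies to these libraries was not tested. Of 7 epithelial or goblet markers, Clca1, Krt20 and Spink4 had 0 UMIs in every gate and library, and the whole list summed to at most 22.1 CPM. The gates were set by markers of other cell types, so these values alone cannot decide on the goblet cell label. Of the 15256 barcodes kept, however, 6465 met the T, 1716 the NK and 4196 the myeloid marker rule. Most barcodes thus carried markers of the immune cells that the sample titles name, not of the cell type field. Barcodes that got no gate were not scored for this list. A UMI is a tag that marks 1 captured transcript molecule, and levels are given as CPM, the UMI count of a gene scaled to the same total in every sum of barcodes.

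Proteins that enter the ER fold with the help of chaperones and disulfide isomerases, and when unfolded protein accumulates the sensors IRE1, PERK and ATF6 raise the transcription of these helpers. PERK also phosphorylates the translation factor eIF2, as does GCN2 when an amino acid is short, and the transcription factor ATF4 is then translated and switches on genes for amino acid synthesis, uptake and tRNA charging. In tumors and in secretory or dividing immune cells both programmes are known to be in use.

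Barcodes with at least 1000 UMIs, at most 10% mitochondrial UMIs and no high doublet score numbered 3898 in Ac, 4068 in C, 3948 in aC+C and 3342 in IgG, from libraries of 61519049 to 75665201 UMIs in all. A barcode was put in a gate, meaning a class set by marker genes alone, when at least 75% of its marker UMIs came from 1 list. This placed 13510 of 15256 barcodes: 395 tumor-like, 427 stromal, 311 dendritic, 4196 myeloid, 1716 NK and 6465 T. The tumor-like gate was defined by genes such as Tm4sf1, which stood at 1344 to 1469 CPM there against 314 to 412 CPM in the stromal gate. Of the keratins, Krt8 stood at 24.2 to 57.1 CPM in it against 0.24 to 1.68 CPM in the stromal gate, and Krt18 at 0.23 to 4.79 CPM against 0 to 0.22 CPM. It kept Dcn at 438 to 613 CPM against 4035 to 4386 CPM in the stromal gate, and Klra4, listed as an NK marker, stood at 173 to 233 CPM in it. The gate is therefore called tumor-like only for its rule. The median barcode held 68417 to 77959 UMIs in the tumor-like gate, 30926 to 34527 in the stromal gate and 7340.5 to 14099 in the other gates. Any pair of libraries shared 2 to 7 barcodes among those kept.

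The sequences below show letters that are known to mark some genes of each arm. The ER stress response element, CCAAT and CCACG with 9 free bases between them, binds NF-Y and ATF6, and its short form is ATTGG and CCACG with 1 free base between them; the C/EBP-ATF response element, written TGATGNAA, binds ATF4 with a partner. RefSeq promoters of the build GRCm38.p6, from 250 bases before to 50 after the start, matched 32 of the 35 members. On both strands the long ER element was found in 8 members, all among the 17 matched of the ER arm, and in 0.119% of 32851 promoters. The short form was found in Dnajb11 and Herpud1 and in 0.037% of all promoters, and both forms end in CCACG. The ATF4 element was found in 5 of the 15 matched ATF4 arm members, Asns, Chac1, Trib3, Slc7a11 and Aars. It was also found in Herpud1 of the ER arm, against 3.97% of all promoters. Psat1, Mthfd2, Phgdh, Psph and Shmt2 had no match to it there. These are matches of letters, not measured binding. The windows shown are those of some members with a match that the results below name. Each runs from 5′ to 3′ on the gene's strand, with the matching letters in capitals, including the free letters inside the long element.
Hspa5: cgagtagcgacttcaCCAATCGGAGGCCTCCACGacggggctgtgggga
Pdia6: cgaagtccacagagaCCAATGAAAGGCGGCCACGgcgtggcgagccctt
Herpud1: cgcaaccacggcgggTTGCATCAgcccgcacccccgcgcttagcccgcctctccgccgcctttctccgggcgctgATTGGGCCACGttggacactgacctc
Asns: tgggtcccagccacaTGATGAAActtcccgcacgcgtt
Chac1: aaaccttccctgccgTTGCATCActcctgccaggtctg
Slc7a11: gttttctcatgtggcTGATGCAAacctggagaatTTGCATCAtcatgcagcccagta
The Hspa5 window is chr2:34772010-34772058 on the plus strand, and that of Pdia6 is chr12:17266476-17266524 on the plus strand. The Herpud1 window is chr8:94386302-94386402 on the plus strand and holds the ATF4 element, read on the opposite strand, and the short ER element. The Asns window is chr6:7693210-7693247 on the minus strand and ends at the base before the start. The Chac1 window is chr2:119351034-119351071 on the plus strand, with its element on the opposite strand. The Slc7a11 window is chr3:50443638-50443694 on the minus strand and holds the element once on each strand.

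Taken as a sum, the ER arm made up 0.509% to 0.542% of UMIs in tumor-like, 0.394% to 0.472% in stromal, 0.272% to 0.349% in dendritic, 0.355% to 0.364% in myeloid, 0.323% to 0.349% in NK and 0.263% to 0.298% in T barcodes. The 4 tumor-like libraries were above those of every other gate, and among the lymphocytes every NK library was above every T library. The ATF4 arm made up 0.219% to 0.258% in tumor-like barcodes, against 0.090% to 0.109% in stromal, 0.078% to 0.092% in dendritic, 0.075% to 0.080% in myeloid, 0.069% to 0.074% in NK and 0.080% to 0.087% in T barcodes. Of the ATF4 arm 13 of 17 members had their highest mean level in the tumor-like gate. The ER arm was divided, with 7 of 18 members highest in the tumor-like gate, 6 in the stromal gate, 2 each in the dendritic and myeloid gates and 1 in the T gate. Exact binomial intervals on the single shares cover counting error only, and molecules of 1 cell are not independent.

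**Figure D1:**
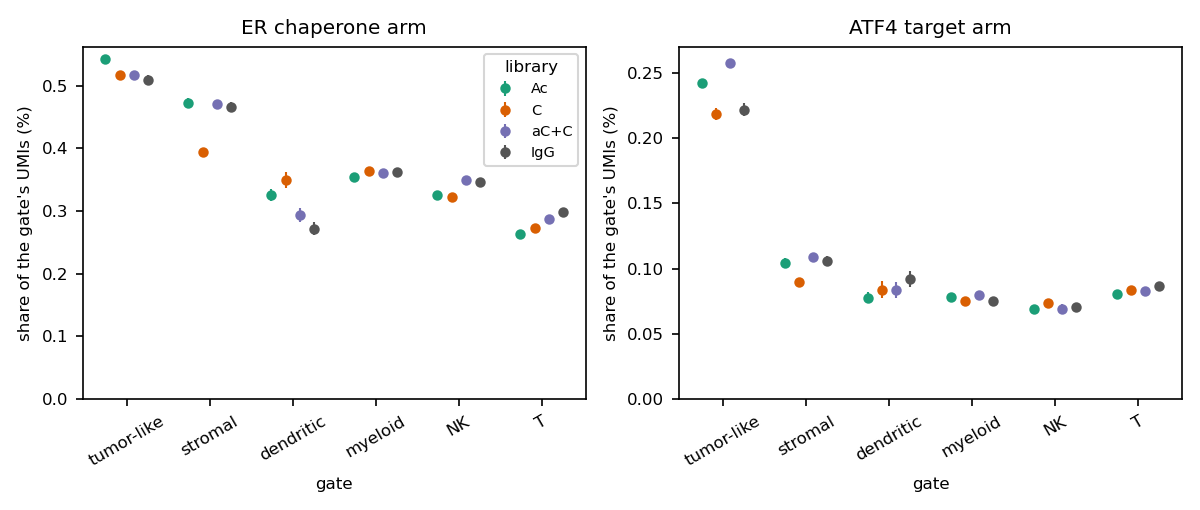
Share of each gate's UMIs (vertical axis, %) taken by the ER chaperone arm (left) and the ATF4 target arm (right), by gate and library, with 95% exact binomial intervals for counting error only. The 4 tumor-like points of the ATF4 arm lie at 0.219% to 0.258%, above every point of the other gates.

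**Figure D2:**
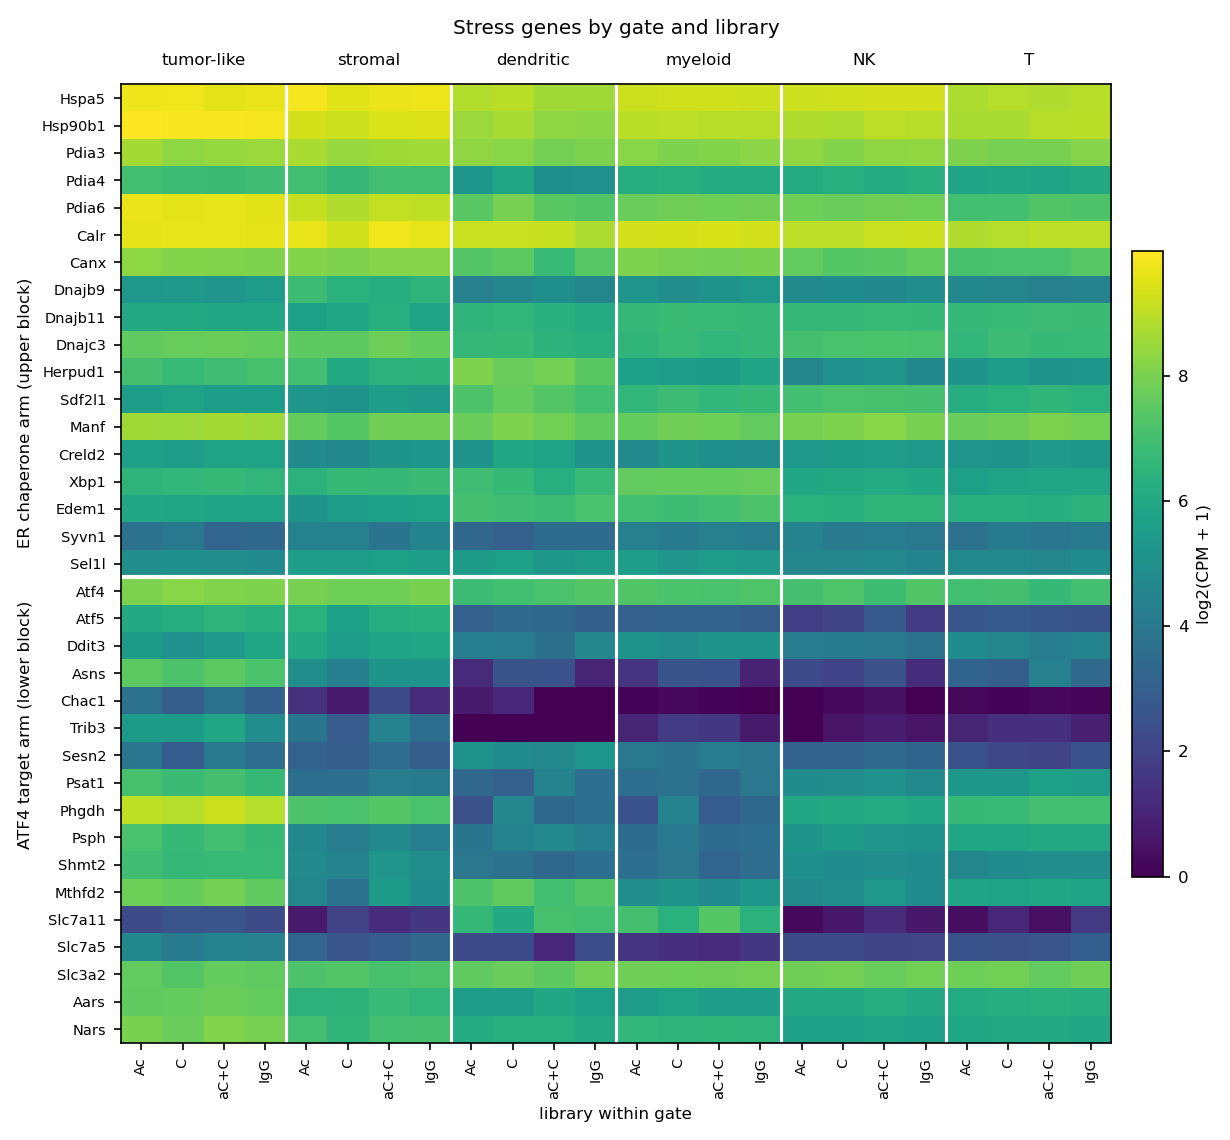
Level of each of the 35 members as log2(CPM + 1) (colour) in the 4 libraries of each gate, with the ER chaperone arm in the upper block and the ATF4 target arm in the lower block. Slc7a11 is bright in the dendritic and myeloid gates and dark in the NK and T gates, and Trib3 is at 0 in all 4 dendritic libraries.

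Among the 6 contrasts made, the medians of the arms lay furthest apart between tumor-like and stromal barcodes. In tumor-like barcodes 11 of the 17 ATF4 arm members rose by the 2-fold rule given below. None of the 18 ER arm members did, while 1 member of the ER arm, Dnajb9, fell. The median log2 fold change was 1.55 for the ATF4 arm and 0.04 for the ER arm, beside -0.19 for all 12876 genes tested. A member was called when the adjusted p of edgeR's quasi-likelihood test was under 0.05 and the change at least 2-fold, with the library as a term over 4 libraries. By that rule 19.8% of all genes were called, 7.21% higher and 12.6% lower. At any fold, 15 ATF4 arm and 10 ER arm members passed the p threshold in either direction, where 7207 of the 12876 genes did. The 4 libraries are 1 of each treatment group, so these p-values measure whether a gate difference recurred over them.

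Psat1, a transaminase of serine synthesis, stood at 137, 112, 132 and 103 CPM in tumor-like barcodes of Ac, C, aC+C and IgG, against 11.3, 11.5, 17.3 and 15.8 CPM in stromal barcodes. The groups lay far apart, with a log2 fold change of 3.13 ± 0.16 (SE, edgeR adjusted p = 2.73e-12). Mthfd2, a mitochondrial folate enzyme, stood at 221, 197, 242 and 189 CPM in tumor-like barcodes of Ac, C, aC+C and IgG, against 23.3, 13.0, 43.0 and 28.2 CPM in stromal barcodes. All 4 tumor-like libraries were above all 4 stromal ones, by 3.01 ± 0.21 on the log2 scale (edgeR adjusted p = 1.89e-10). Asns, which makes asparagine and carries the element shown above just before its start, stood at 177, 148, 180 and 141 CPM in tumor-like barcodes, against 29.6, 18.9, 35.5 and 34.96 CPM in stromal barcodes in the same order of libraries. Its log2 fold change was 2.49 ± 0.23 (edgeR adjusted p = 1.00e-08), and the lowest tumor-like value was above the highest stromal one.

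The 5 serine and one-carbon enzymes all rose. Phgdh, the first enzyme of serine synthesis, averaged 514 ± 49.2 CPM in tumor-like and 148 ± 11.2 CPM in stromal barcodes (SD, n = 4 libraries each), and Psph, the last, averaged 117 ± 18.1 CPM in tumor-like and 21.3 ± 4.12 CPM in stromal barcodes. Shmt2, which passes a carbon of serine to folate in mitochondria, averaged 109 ± 8.94 CPM in tumor-like and 28.2 ± 6.55 CPM in stromal barcodes. Chac1, which breaks down glutathione, and Trib3, a pseudokinase that binds ATF4, also rose, by 2.36 and 1.78 on the log2 scale. Chac1 was low in both gates, at 6.68 to 12.3 CPM in tumor-like and 0.652 to 3.84 CPM in stromal barcodes. Slc7a5, the large neutral amino acid carrier, rose by 1.55, and the tRNA synthetases Aars and Nars rose by 1.08 and 1.05.

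The members of the ATF4 arm that were not called were the regulators and 3 others. Atf4 itself averaged 274 ± 16.3 CPM in tumor-like and 234 ± 16.3 CPM in stromal barcodes, a log2 difference of 0.23. Atf5, a related factor, stood at 78.0 ± 8.83 CPM in tumor-like and 71.6 ± 14.8 CPM in stromal barcodes, and Ddit3, which encodes CHOP, at 44.1 ± 12.1 CPM in tumor-like and 55.7 ± 7.89 CPM in stromal barcodes. Slc3a2, the heavy chain that partners Slc7a5, differed by 0.34 and Sesn2, a leucine sensor that restrains mTORC1, by 0.59 on the log2 scale. Slc7a11, the cystine carrier, was at 4.58 ± 0.826 CPM in tumor-like and 1.74 ± 0.913 CPM in stromal barcodes and missed the threshold (log2 1.29, edgeR adjusted p = 0.0782).

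Within the ER arm the master chaperone Hspa5, also called BiP, stood at 857, 870, 774 and 812 CPM in tumor-like barcodes of Ac, C, aC+C and IgG, against 936, 729, 831 and 864 CPM in stromal barcodes. The groups overlapped, and the log2 fold change was -0.02 ± 0.08. The lectin chaperones Calr and Canx differed by 0.01 each and Pdia4, a disulfide isomerase, by -0.01. Hsp90b1, the ER form of HSP90, averaged 960 ± 41.9 CPM in tumor-like and 659 ± 46.1 CPM in stromal barcodes. Manf, a secreted protein of the stress response, averaged 382 ± 18.1 CPM in tumor-like and 204 ± 30.9 CPM in stromal barcodes. Pdia6 (log2 0.60) and Creld2 (0.73) were also higher, and Sel1l (-0.66) and Syvn1 (-0.74) were lower. Each of these passed the p threshold but stayed under 2-fold. Of the 18 ER arm members 11 had a positive log2 fold change. Dnajb9, a co-chaperone of Hspa5, stood at 39.0, 40.3, 36.5 and 43.5 CPM in tumor-like barcodes of Ac, C, aC+C and IgG, against 115, 83.2, 73.7 and 89.1 CPM in stromal barcodes. Its log2 change of -1.17 ± 0.10 (edgeR adjusted p = 6.48e-09) went under 2-fold without Ac, at -0.86.

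Cycling differed between these gates. The summed level of 15 cell cycle genes was 3070 to 3793 CPM in tumor-like and 348 to 1421 CPM in stromal barcodes, and 93.9% to 100% of tumor-like against 35.4% to 40.6% of stromal barcodes held at least 3 of their UMIs. When only such cycling barcodes were compared, an alternative added after this was seen, 10 ATF4 arm members and no ER arm member were higher, where 6.59% of 10494 genes were higher and 8.10% lower, with Psat1 at 2.51, Mthfd2 at 2.64 and Asns at 2.20 on the log2 scale. Nars (0.98) and Dnajb9 (-0.90) were then under 2-fold. In every library Psat1, Mthfd2 and Asns were higher in cycling than in all stromal barcodes. Psat1 stood at 22.0, 16.6, 29.1 and 24.7 CPM in cycling stromal barcodes of Ac, C, aC+C and IgG. Whether the level of cycling was the same in the cycling barcodes of both gates was not tested. The part of depth per barcode, which was also higher in the tumor-like gate, was not tested.

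Of 30 tested genes of a list of other ATF4 targets and tRNA synthetases, 13 rose in tumor-like barcodes and 1 fell, beside 7.21% and 12.6% of all genes. Cth, which makes cysteine, stood at 17.98 to 26.9 CPM in tumor-like and 0.43 to 4.08 CPM in stromal barcodes, and Bcat1, a branched-chain transaminase, at 50.2 to 60.3 CPM in tumor-like and 6.30 to 15.6 CPM in stromal barcodes. The synthetases Cars and Iars rose by 1.63 and 1.49 on the log2 scale. Of 25 other ER folding and degradation genes none rose and Edem3 fell by 1.08. Among 12 stress sensors and eIF2 regulators 1 was called, Eif2s1, the alpha subunit of eIF2, at 219 to 229 CPM in tumor-like and 74.1 to 98.0 CPM in stromal barcodes.

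**Figure D3:**
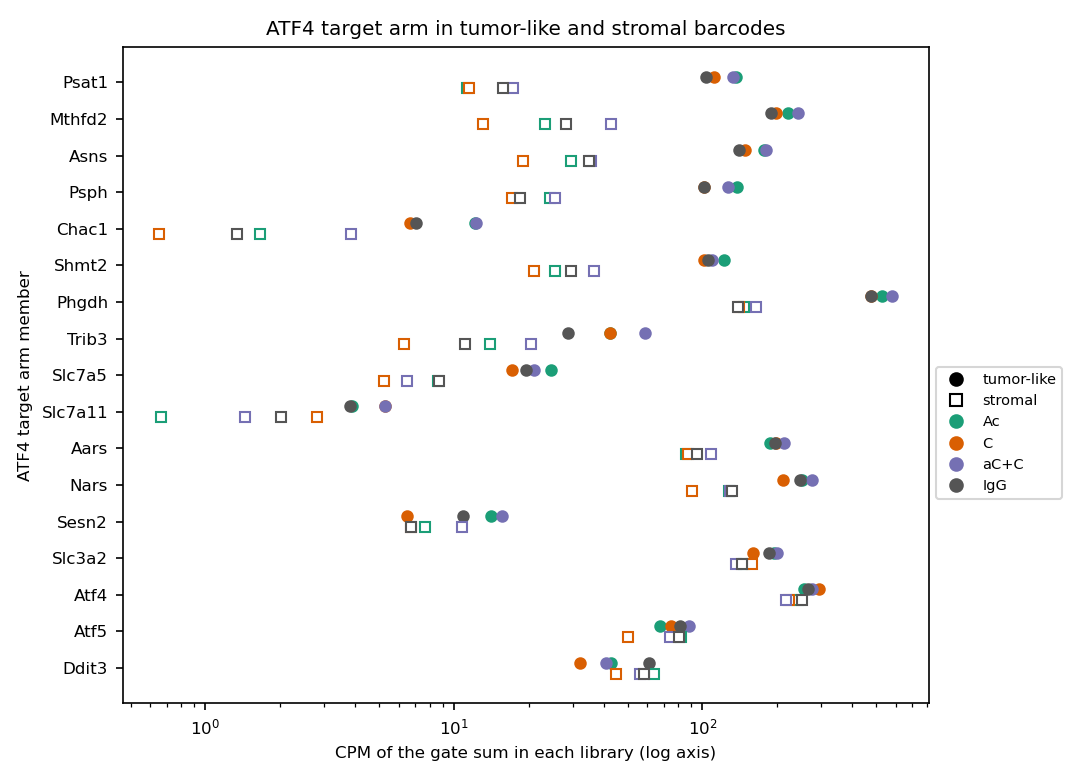
Level of the 17 ATF4 arm members (rows, ordered by log2 fold change) as CPM on a log axis in tumor-like (filled circles) and stromal (open squares) barcodes, 1 point per library. For Psat1 the 4 tumor-like points lie at 103 to 137 CPM and the 4 stromal points at 11.3 to 17.3 CPM, whereas the points of Ddit3 and Atf5 overlap.

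Relations between members were described over single tumor-like barcodes. Spearman's rho between Asns and the sum of the rest of its arm, as shares of UMIs, was 0.784 in Ac, 0.823 in C, 0.670 in aC+C and 0.707 in IgG, over 88, 64, 198 and 45 barcodes. For Hspa5 and the rest of the ER arm it was 0.574, 0.737, 0.695 and 0.621 in the same order. The sums of the arms were related less closely, with rho of -0.180 in Ac, -0.126 in C, 0.055 in aC+C and 0.354 in IgG. Ddit3 was loosely tied to its arm, at 0.096 to 0.420, and Herpud1 to the ER arm, at -0.062 to 0.177. These values are a description, since barcodes of 1 library share its depth and ambient RNA; the ATF4 sum also had a rho of 0.306 to 0.448 with the total UMIs of the barcode.

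Stromal against T barcodes showed 13 called members, 8 higher and 5 lower, where 44.9% of 12876 genes were called, 24.1% higher and 20.8% lower. The changes went both ways inside each arm. Pdia6, a disulfide isomerase with the long ER element shown above, rose by 1.71 ± 0.10 and Dnajb9 by 1.83 ± 0.10 on the log2 scale, while the co-chaperone Dnajb11 (-1.05) and Sdf2l1 (-1.27 ± 0.10), which works with it, fell. In CPM, Sdf2l1 stood at 35.9, 32.8, 47.3 and 41.7 in stromal barcodes of Ac, C, aC+C and IgG, against 73.6, 82.9, 92.0 and 82.3 in T barcodes. Herpud1, a membrane adaptor of ER-associated degradation, averaged 92.3 ± 25.7 CPM in stromal and 37.5 ± 4.75 CPM in T barcodes (SD, n = 4 libraries each).

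In the ATF4 arm Atf5, Trib3, Chac1, Ddit3 and Asns rose, Psat1, Psph and Mthfd2 fell, and the other 9 members were not called. Atf5 stood at 81.7, 49.96, 74.2 and 80.3 CPM in stromal barcodes of Ac, C, aC+C and IgG, against 5.31, 6.18, 5.34 and 4.94 CPM in T barcodes, a log2 change of 3.51 ± 0.14 (edgeR adjusted p = 1.14e-15). Trib3 stood at 13.95, 6.30, 20.4 and 11.1 CPM in stromal barcodes, against 1.05, 1.60, 1.63 and 0.846 CPM in T barcodes, which do not overlap. Chac1 was called at a log2 change of 3.57 ± 0.50, but on few molecules, with 5, 3, 16 and 4 UMIs in stromal and 3, 1, 3 and 2 UMIs in T barcodes.

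Ddit3 rose by 1.11 and Asns by 1.21, the libraries of Asns overlapping. Free RNA held Asns at 22.2 CPM in C and 52.5 CPM in aC+C, above the 18.9 and 35.5 CPM of the stromal barcodes of those libraries, and its part in this call was not tested. Psat1 and Psph fell by 1.84 and 1.76, and Mthfd2 fell by 1.26. Psat1 stood at 11.3, 11.5, 17.3 and 15.8 CPM in stromal barcodes of Ac, C, aC+C and IgG, against 37.96, 38.5, 50.3 and 47.8 CPM in T barcodes. Psph stood at 24.2, 17.2, 25.5 and 18.5 CPM in stromal barcodes of Ac, C, aC+C and IgG, against 60.1, 57.2, 68.5 and 64.2 CPM in T barcodes. Outside the members, Nupr1, a stress-induced cofactor, stood at 286 to 424 CPM in stromal and 1.15 to 2.34 CPM in T barcodes, and 12 of 30 other ATF4 targets rose while 3 fell, 15 called in all, where 44.9% of all genes were called. Scaling by TMM, a trimmed mean over genes, moved all genes by -0.20 here, by 0.22 for NK against T and by 0.14 for myeloid against T on the log2 scale, and by at most 0.05 in the other contrasts. Without it the members split into 9 higher and 4 lower, Dnajb11 no longer passing 2-fold, and all genes into 3459 and 2307 instead of 3105 and 2681.

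**Figure D4:**
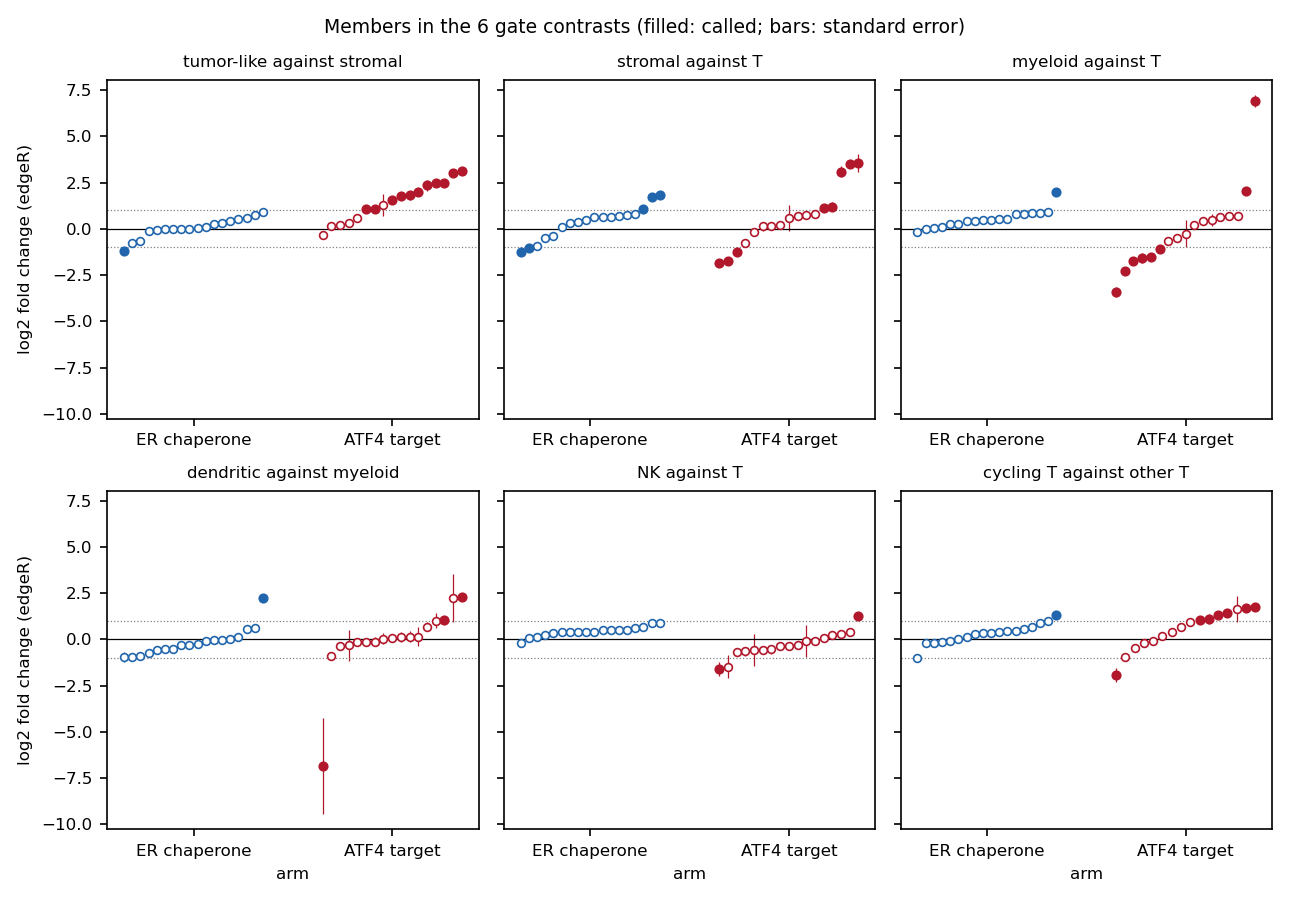
Log2 fold change (vertical axis) of the tested members in 6 contrasts, the ER chaperone arm in blue and the ATF4 target arm in red, each sorted by value, with standard errors from edgeR; filled points were called and dotted lines mark 2-fold. In tumor-like against stromal barcodes 11 red points and no blue point are filled above 0.

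Myeloid barcodes, which hold monocyte and macrophage markers, differed from T barcodes in 9 members, 3 higher and 6 lower, where 38.4% of genes were called, 22.5% higher and 16.0% lower. The cystine carrier Slc7a11 stood at 132, 82.0, 164 and 84.6 CPM in myeloid barcodes of Ac, C, aC+C and IgG, against 0.3, 1.25, 0.327 and 2.26 CPM in T barcodes. That was a log2 change of 6.90 ± 0.32 (edgeR adjusted p = 2.00e-14); barcodes of 1 to 50 UMIs, which hold free RNA, gave Slc7a11 22.8 to 35.4 CPM, above the T level. Xbp1, whose spliced form drives ER chaperone genes, stood at 193, 196, 201 and 204 CPM in myeloid and 48.4, 56.7, 58.5 and 59.2 CPM in T barcodes, and rose by 1.97 ± 0.10. The counts do not separate spliced from unspliced Xbp1. Sesn2 rose by 2.04 ± 0.16, at 15.3, 12.8, 17.3 and 14.8 CPM in myeloid and 4.76, 3.33, 3.16 and 4.79 CPM in T barcodes. The other 17 members of the ER arm were not called and lay between -0.17 and 0.93.

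The serine synthesis genes Phgdh, Psph and Psat1 all fell in myeloid barcodes. Phgdh stood at 4.75, 21.2, 6.58 and 9.27 CPM in myeloid barcodes of Ac, C, aC+C and IgG, against 102, 109, 129 and 125 CPM in T barcodes, and fell by 3.39 ± 0.27. Psph stood at 10.4, 14.9, 10.3 and 11.3 CPM in myeloid barcodes, against 60.1, 57.2, 68.5 and 64.2 CPM in T barcodes of the same libraries. Psat1 fell by 1.76 ± 0.14, at 11.1, 12.5, 9.31 and 14.6 CPM in myeloid and 37.96, 38.5, 50.3 and 47.8 CPM in T barcodes. Shmt2, Asns and Slc7a5 fell by 1.10, 1.56 and 1.53. Of 30 other ATF4 targets 7 rose and 4 fell, a share near the 22.5% and 16.0% of all genes. Among those that rose was Atf3, a stress-induced factor, at 358 to 467 CPM in myeloid and 9.64 to 28.8 CPM in T barcodes. Of 25 other ER folding and degradation genes 4 rose, among them P4hb, the main disulfide isomerase, by 1.47. Of 12 stress sensors and eIF2 regulators 1 rose, Atf6, the sensor that binds the long ER element, by 1.21. None of either list fell, beside 22.5% of all genes higher and 16.0% lower.

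Within the myeloid gate the members differed between barcodes rich and poor in complement C1q transcripts, which mark macrophages. Slc7a11 stood at 213, 134, 225 and 196 CPM in barcodes with a C1q share of at most 10%, against 103, 61.8, 117 and 44.9 CPM in those with at least 50%, in Ac, C, aC+C and IgG. Xbp1 followed the same side, at 241 to 266 CPM in the C1q-poor and 170 to 177 CPM in the C1q-rich barcodes. The chaperones lay the other way: Calr stood at 429 to 474 CPM in the C1q-poor and 703 to 817 CPM in the C1q-rich barcodes, and Hspa5 at 458 to 531 and 620 to 675 CPM. In all 4 of these genes the 4 libraries of each side did not overlap; the C1q-poor barcodes were shallower, with median totals of 7516 to 8747 against 12747 to 16045 UMIs, and the part of depth was not tested.

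Dendritic barcodes differed from myeloid ones in 4 members, 3 higher and 1 lower, where 22.0% of genes were called, 8.54% higher and 13.4% lower. Herpud1, which carries both elements in the window shown, stood at 264, 206, 239 and 174 CPM in dendritic barcodes of Ac, C, aC+C and IgG, against 48.8, 45.1, 42.5 and 56.1 CPM in myeloid barcodes. It rose by 2.22 ± 0.17 on the log2 scale (edgeR adjusted p = 4.43e-10). Mthfd2 stood at 148, 186, 124 and 160 CPM in dendritic and 29.0, 35.4, 27.6 and 37.6 CPM in myeloid barcodes, and rose by 2.28 ± 0.20. Sesn2 stood at 34.5, 27.3, 24.8 and 37.3 CPM in dendritic and 15.3, 12.8, 17.3 and 14.8 CPM in myeloid barcodes. Its change of 1.06 ± 0.20 was at the 2-fold limit and fell under it without IgG (0.96) or without Ac (0.94).

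Trib3 had 0 of 4123801 UMIs in dendritic barcodes, where a count of 0 allows up to 0.727 CPM, and 89 UMIs or 1.72 CPM in myeloid barcodes. On these sums over all libraries it was at least 2.36-fold lower, a bound for counting error only. Single myeloid libraries stood at 0.629 to 2.41 CPM, the lowest under the dendritic limit. The Trib3 call (edgeR adjusted p = 0.0420) was lost without IgG, Ac or aC+C, with adjusted p-values of 0.0879, 0.0854 and 0.141. Of 30 other ATF4 targets 1 rose and 7 fell, beside 8.54% and 13.4% of all genes; Cebpb, a myeloid factor that pairs with ATF4, stood at 39.0 to 88.3 CPM in dendritic and 1384 to 1910 CPM in myeloid barcodes. Of 25 other ER folding and degradation genes 1 rose and 2 fell, among the latter Ero1l, the oxidase that recharges disulfide isomerases, by 1.79.

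The dendritic gate was divided by the genes Ccl22, Fscn1 and Cacnb3, which mark mature, migrating dendritic cells. Where these made up at least 50% of the dendritic marker UMIs, Hspa5 stood at 217, 193, 174 and 230 CPM in Ac, C, aC+C and IgG, against 606, 639, 507 and 531 CPM in the other barcodes. Sdf2l1 stood at 9.49 to 37.0 CPM in these barcodes against 213 to 287 CPM in the others, and Calr at 146 to 206 CPM in these against 687 to 798 CPM in the others. Mthfd2 and Slc7a11 lay the other way, Mthfd2 at 165 to 325 CPM against 81.9 to 119 CPM and Slc7a11 at 132 to 342 CPM against 9.43 to 58.8 CPM. These ranges do not overlap for any of the 5 genes, though each side held only 24 to 56 barcodes per library. Herpud1, at 155 to 277 CPM against 122 to 257 CPM, was high on both sides.

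NK barcodes differed from T barcodes in 2 members, 1 higher and 1 lower, where 13.8% of genes were called, 6.10% higher and 7.73% lower. Sesn2 stood at 7.72, 7.96, 9.71 and 8.41 CPM in NK barcodes of Ac, C, aC+C and IgG, against 4.76, 3.33, 3.16 and 4.79 CPM in T barcodes, and rose by 1.28 ± 0.19 (edgeR adjusted p = 1.87e-05). Asns stood at 3.70, 3.003, 4.51 and 1.502 CPM in NK barcodes, against 8.21, 7.22, 19.5 and 10.0 CPM in T barcodes, and fell by 1.60 ± 0.36. Neither gene's libraries overlapped, though free RNA held Asns at 11.4 to 52.5 CPM, above the NK level. Of the 35 members 23 passed the p threshold, most of them at less than 2-fold, where 37.3% of all genes passed it, and 17 of 18 ER arm members had a positive log2 fold change, with a median of 0.42, or 0.21 without TMM, beside -0.03 and -0.25 for all genes; Dnajb11 (0.15) and Sel1l (0.07) were within the 0.22 by which TMM moved all genes. Without TMM the calls over all genes split into 634 higher and 1364 lower instead of 786 and 995, and those among the members into 1 and 2. Hspa5 was at 604 to 632 CPM in NK and 433 to 485 CPM in T barcodes. Of 12 stress sensors and eIF2 regulators 1 was called, Ern1, which encodes the sensor IRE1 alpha. It stood at 33.3 to 49.2 CPM in NK and 7.57 to 11.5 CPM in T barcodes.

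Inside the T gate, cycling barcodes (at least 3 UMIs of the cell cycle list) differed from those with none in 8 members, 7 higher and 1 lower. Of 10988 genes 12.6% were called, 6.73% higher and 5.84% lower; the cell cycle genes defined the groups and are no members. Psat1 stood at 60.1, 55.2, 71.1 and 64.0 CPM in cycling T barcodes of Ac, C, aC+C and IgG, against 19.1, 17.2, 19.2 and 21.8 CPM in the other T barcodes, and rose by 1.74 ± 0.08 (edgeR adjusted p = 7.14e-09). Phgdh stood at 151, 148, 178 and 166 CPM in cycling and 59.7, 65.9, 57.7 and 66.0 CPM in the other T barcodes. Asns stood at 11.6, 10.3, 28.5 and 13.4 CPM in cycling and 4.02, 4.31, 7.95 and 4.03 CPM in the other T barcodes, highest in aC+C on both sides; free RNA held more Asns than the cycling barcodes in Ac, C and aC+C, but not in IgG. Phgdh and Asns rose by 1.42 ± 0.08 and 1.69 ± 0.15.

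Shmt2 (1.34), Mthfd2 (1.07) and Slc7a5 (1.10) rose as well, the last with overlapping libraries, and of the ER arm Sdf2l1 rose by 1.31. Trib3 fell by 1.92 ± 0.39, on 3, 8, 11 and 3 UMIs in cycling and 13, 11, 14 and 10 UMIs in the other T barcodes of Ac, C, aC+C and IgG. Of 12 stress sensors and eIF2 regulators 1 was called, Ppp1r15a, the phosphatase subunit that reverses eIF2 phosphorylation. It stood at 51.7 to 92.4 CPM in cycling and 137 to 171 CPM in the other T barcodes. Of 24 other ATF4 targets tested 2 rose and 2 fell, beside 6.73% and 5.84% of all genes. Bcat1 rose by 2.08 and Mthfd1l by 1.04, while Atf3 fell by 1.19 and Stc2 by 1.13. Median totals were 17638 to 19763 UMIs in cycling and 4717 to 6532 UMIs in the other T barcodes, and the part of depth was not tested; with at least 5000 UMIs per barcode 6 members were called.

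Between treatment groups there was 1 library each, so no test was possible and differences between animals and groups cannot be told apart. Ratios are given where the libraries compared summed to 100 UMIs or more, with exact conditional binomial intervals at 95% for counting error only, and 1.5-fold was used to count genes. In the T gate, past 1.5-fold of IgG were 0 of 32 members for Ac, 1 for C and 2 for aC+C, where 2.95%, 3.33% and 5.64% of genes were. In the NK gate none of 28 or 29 members was, where 1.61%, 2.20% and 4.04% of genes were in Ac, C and aC+C. The summed ER arm in T barcodes of Ac, C and aC+C was 0.882, 0.918 and 0.966 of IgG, and the summed ATF4 arm 0.928, 0.970 and 0.960.

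The largest of the T gate ratios was that of Asns, with 19.5 CPM (358 UMIs) in aC+C against 10.0 CPM (213 UMIs) in IgG, a ratio of 1.95 (1.64 to 2.32). Ac and C lay below IgG, at 8.21 and 7.22 CPM. Barcodes with Cd8 and no Cd4 UMIs stood at 23.4 CPM in aC+C against 8.98, 9.32 and 9.80 CPM in Ac, C and IgG, on 335, 131, 75 and 141 UMIs in the order aC+C, Ac, C and IgG. Those with Cd4 and no Cd8 UMIs stood at 2.78, 5.17, 4.03 and 6.46 CPM in the same order. These rest on only 5, 13, 7 and 11 Asns UMIs, and the higher level of aC+C was not seen in them. Free RNA held more Asns in aC+C as well, at 52.5 CPM against 19.7, 22.2 and 11.4 CPM in Ac, C and IgG, and with 5% of background taken out the T gate ratio was 1.79. Without the barcode with the most Asns UMIs in each library, 35 of them in aC+C, the ratio was 1.81, and as a mean over barcodes 1.63. Sesn2 was at 3.16 CPM in aC+C against 4.79 CPM in IgG, a ratio of 0.659 (0.469 to 0.918), and Slc7a5 at 4.59 CPM in C against 6.91 CPM in IgG, a ratio of 0.664 (0.489 to 0.893).

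**Figure D5:**
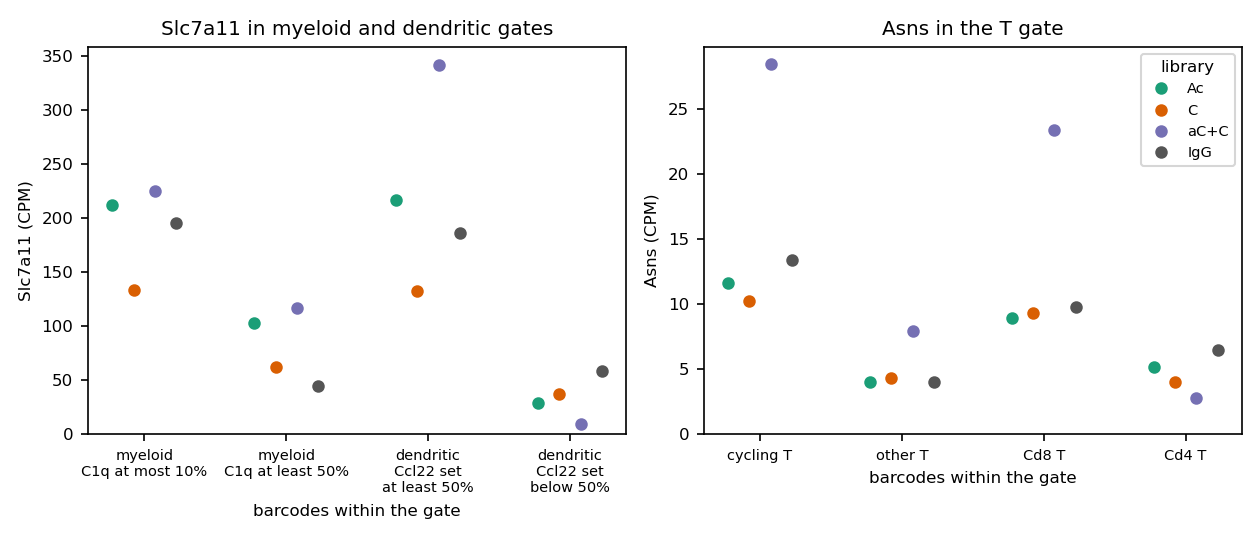
Level in CPM (vertical axes from 0) of Slc7a11 in parts of the myeloid and dendritic gates (left) and of Asns in parts of the T gate (right), 1 point per library. Asns in aC+C stands at 28.5 CPM in cycling T and 23.4 CPM in Cd8 barcodes, above the other libraries. Among the Cd4 points, which rest on 5 to 13 UMIs each, aC+C is the lowest at 2.78 CPM.

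In the myeloid gate, past 1.5-fold of IgG were 2 of 31 members for Ac, 1 for C and 2 for aC+C, where 4.70%, 4.81% and 7.74% of genes were. Slc7a11 had 164 CPM in aC+C and 132 CPM in Ac against 84.6 CPM in IgG, ratios of 1.94 (1.77 to 2.13) and 1.56 (1.42 to 1.72), and 82.0 CPM in C. As a mean over barcodes, which gives deep and shallow barcodes the same weight, the ratios were 1.27 in aC+C and 1.09 in Ac. By C1q class, the C1q-rich barcodes stood at 117 CPM in aC+C and 103 CPM in Ac against 44.9 CPM in IgG, and the C1q-poor ones at 225 and 213 CPM against 196 CPM. Those between stood at 259 and 165 CPM against 51.0 CPM. In C the C1q-rich ones were above IgG, at 61.8 CPM, as were those between, at 102 CPM, and the C1q-poor ones below it, at 134 CPM. The C1q-poor barcodes numbered 335 of 1060 in Ac, 449 of 1198 in C, 599 of 1386 in aC+C and 194 of 552 in IgG.

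Psat1 had 9.31 CPM in aC+C against 14.6 CPM in IgG, a ratio of 0.637 (0.490 to 0.832). Phgdh had 21.2 CPM in C against 9.27 CPM in IgG, a ratio of 2.29 (1.73 to 3.08). In Ac it had 4.75 CPM, a ratio of 0.513 (0.356 to 0.740), which turned round to 1.27 with doublets kept, so no direction is given. The T gate of the same libraries held Phgdh at over 100 CPM, and its part in the myeloid values was not tested.

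In the tumor-like gate, past 1.5-fold of IgG were 1 of 34 members for Ac, 1 of 31 for C and 2 of 34 for aC+C, where 2.83%, 2.97% and 5.94% of genes were. Trib3 stood at 42.3, 42.6 and 58.6 CPM in Ac, C and aC+C against 28.8 CPM in IgG, and the aC+C ratio was 2.03 (1.65 to 2.53). Chac1 stood at 12.1 CPM in Ac and 12.3 CPM in aC+C against 7.06 CPM in IgG, ratios of 1.72 (1.08 to 2.82) and 1.75 (1.14 to 2.80). The summed ATF4 arm in tumor-like barcodes of Ac, C and aC+C was 1.09, 0.984 and 1.16 of IgG, and the summed ER arm 1.07, 1.02 and 1.02. Ddit3 had 32.0 CPM in C against 60.9 CPM in IgG, a ratio of 0.526 (0.421 to 0.655); 1 of 45 IgG barcodes held 34.3% of its Ddit3 UMIs, and without the barcode with the most in each library the ratio was 0.732.

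In the stromal gate, of 82 to 143 barcodes a library, past 1.5-fold of IgG were 1 of 29 members for Ac, 4 of 30 for C and 3 of 31 for aC+C, where 6.66%, 6.95% and 7.70% of genes were. All 4 in C were lower: Mthfd2 at 0.462, Asns at 0.541, Atf5 at 0.622 and Creld2, an ER protein of the stress response, at 0.652 of IgG. As a mean over barcodes Mthfd2 was at 0.954 and Asns at 0.791. In aC+C Trib3 was at 1.84 and Mthfd2 at 1.52 of IgG, and Syvn1, the ubiquitin ligase of ER-associated degradation, at 0.605; in Ac Edem1, a lectin that hands misfolded glycoproteins to it, was at 0.657. In the dendritic gate, of 60 to 99 barcodes a library, 1 of 20, 3 of 18 and 1 of 18 members of Ac, C and aC+C were past 1.5-fold of IgG, where 9.36%, 11.2% and 14.9% of genes were. Herpud1 was at 1.52 of IgG in Ac, Pdia6 at 1.58, Sdf2l1 at 1.57 and Slc7a11 at 0.554 in C, and Canx at 0.662 in aC+C. The dendritic barcodes were mixed unevenly, those high in Ccl22, Fscn1 and Cacnb3 making up 24 of 60 barcodes in C and 56 of 90 in IgG, and the ratios were not the same within each class. Sdf2l1 in C stood at 11.3 CPM (3 UMIs) against 24.6 CPM (12 UMIs) in IgG among those barcodes, and at 287 against 229 CPM among the others. Pdia6 stood at 52.9 CPM (14 UMIs) in C against 36.9 CPM (18 UMIs) in IgG among those barcodes, and at 339 against 275 CPM among the others. Slc7a11 was lower in C on both sides, at 132 against 187 CPM and at 37.0 against 58.8 CPM, the last on 20 and 28 UMIs.

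Pdia3, a disulfide isomerase for glycoproteins, was at 313 to 429 CPM in tumor-like and stromal barcodes and at 240 to 336 CPM in the other gates, and Dnajc3, an inhibitor of PERK and co-chaperone, at 175 to 220.2 CPM and 80.9 to 143 CPM in the same sets. Sel1l, the partner of Syvn1, ranged from 22.1 CPM in an NK library to 49.7 CPM in a stromal one. Slc3a2 ranged from 137 to 242 CPM over all gates and was not called in any of the 6 contrasts.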

How the data were processed

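The deposited files hold UMI counts per gene and barcode, 1 matrix for each of 4 mouse libraries, which the authors made with Cell Ranger 2.1.1 on mm10, per the submitters' processing notes; the matrix headers name software 3.0.2. The annotation release is not given in the sources used here. Single cell 3′ v2 reagents and a target of 5000 cells are named in the labels' texts. The matrices list 6794880 barcodes each and are not filtered for cells. The software named in the notes and in the headers differs. Whether version 2.1.1 and the v2 reagents apply to these matrices was not tested.

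Barcodes were kept with at least 1000 UMIs and at most 10% mitochondrial UMIs. Doublets were scored with Scrublet in scanpy 1.11.5, and the highest scores, 0.8% per 1000 barcodes, were removed (130 in Ac, 142 in C, 133 in aC+C and 94 in IgG). Gates needed 3 marker UMIs from 2 genes and 75% of marker UMIs from 1 list. Among mesenchymal barcodes, a tumor-like share of at least 50% made the tumor-like gate and at most 25% the stromal gate. Of the barcodes kept, 6.31% in Ac, 16.5% in C, 8.71% in aC+C and 14.5% in IgG got no gate. Of 215 listed genes 212 were found.

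Counts were summed per gate and library and tested with edgeR 4.0.16 (R 4.3.3; filterByExpr, TMM, quasi-likelihood test, library as a block, Benjamini-Hochberg adjustment over all genes tested); DESeq2 1.42.0 was an alternative. The fit was tested on simulated data first. Nothing in the labels says that libraries came from separate animals, so p-values measure only the spread over these 4 libraries. Library comparisons used ratios of CPM with exact conditional binomial intervals at 95%, and floors of 3 counts for a count of 0; both cover counting error only, since molecules of 1 cell are not independent.

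The members and lists were chosen with earlier results of these data known, and the gate thresholds, the C1q, dendritic, Cd4 and Cd8 splits and the cycling limit of 3 UMIs were set after the data were seen, as was the comparison of cycling barcodes alone. Named in each gate contrast were the 3 called members with the largest changes in each direction; further members were described by role. In library comparisons all members past 1.5-fold were named, and up to 4 called genes of each further list.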

Additional observations from a re-analysis of the deposited data

Results flagged for a closer look

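Members whose ratio between libraries pointed opposite ways in 2 gates were singled out; with 1 library per group, none of these differences between gates was tested. Herpud1 in aC+C was 1.60 of its level in Ac in the NK gate (35.7 against 22.3 CPM) and 0.654 of it in the stromal gate (84.1 against 128.6 CPM). Mthfd2 in aC+C was 0.665 of its level in C in the dendritic gate (124 against 186 CPM) and 3.30 times it in the stromal gate (43.0 against 13.0 CPM). The low stromal Mthfd2 level in C was near that of IgG as a mean over barcodes, as given above. Shmt2 in aC+C was 0.588 of its level in C in the myeloid gate (8.72 against 14.8 CPM) and 1.73 times it in the stromal gate (36.5 against 21.1 CPM).

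Barcodes that got no gate were used in no comparison. The summed ATF4 arm stood at 1391, 1244 and 1877 CPM in those of Ac, C and aC+C, against 1001 CPM in those of IgG. The summed tumor-like markers stood at 711, 493 and 1035 CPM in the same barcodes of Ac, C and aC+C, against 204 CPM in IgG; their part in the arm's level was not tested.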

How the results depend on the processing

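Over all gate contrasts, 26 named member changes were recomputed under 415 alternatives: 403 kept their direction and side of the threshold, 12 were no longer past it and none reversed. The counts of members called stayed within 1.5 times of those reported, except 7 in dendritic against myeloid barcodes with an own marker share of 90%. Leaving out 1 library at a time gave 2 to 3 called members for NK, 8 to 9 for myeloid and 11 to 14 for stromal against T, 3 to 5 for dendritic against myeloid, 12 for tumor-like against stromal and 8 to 11 for cycling against other T barcodes. The labels give no replicate numbers; with no replicate block, that is without the library term, the counts were 2, 9, 13, 4, 12 and 9 in the same order, and Trib3 in dendritic barcodes was not called (adjusted p = 0.109 by edgeR). Its adjusted p ranged from 0.0166 with DESeq2 to 0.332 with a marker share of 60%. Dnajb9 in tumor-like barcodes was at -0.91 with a share of 90%.

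Counts of members past 1.5-fold of IgG were small and moved readily. For Ac in the T gate (0 reported), 2 were past it with a share of 60% and 1 each with doublets kept, as a mean over barcodes, from 20 UMIs, with 5% background removed or without the top barcode. For C in the T gate (1 reported) there were 0 from 5000 UMIs or with a mitochondrial maximum of 5% or 20%, 2 as a mean over barcodes, and 3 from 20 UMIs or with background removed. For aC+C in the T gate (2 reported) there were 1 with a share of 90% or TMM scaling and 4 from 20 UMIs. For Ac in the myeloid gate (2 reported) there were 1 from 5000 UMIs, with a mitochondrial maximum of 5% or with doublets kept, and 0 with a share of 90% or as a mean over barcodes. For C there (1 reported) there were 2 from 5000 UMIs, with a mitochondrial maximum of 5%, a share of 60% or as a mean over barcodes, and 3 from 20 UMIs. For aC+C there (2 reported) there were 1 with a mitochondrial maximum of 5%, as a mean over barcodes or with TMM scaling, and 5 with a share of 60% or from 20 UMIs. The cause was not tested. Of 25 named ratios under 300 alternatives, 278 moved by less than the counting interval, 19 moved further and 3 reversed, all 3 of Phgdh in myeloid barcodes of Ac: 1.15 with a share of 90%, 1.27 where doublets stayed in and 1.01 with a mitochondrial maximum of 5%.

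The dendritic gate held the fewest UMIs, 804502 to 1508792 per library, and depth also limits the low genes Chac1 and Trib3. Asns and Slc7a11 in T barcodes were below their level in free RNA of the same library. With 1 library per treatment group, no comparison between groups has a replicate check.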
